A study of Mus musculus with 11 samples.

Results

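S100 genes encode small calcium-binding proteins, and 7 of them, S100a1, S100a4, S100a6, S100a10, S100a11, S100a13 and S100b, were followed here across 4 mouse cell lines of 1 melanocyte lineage. They were taken by name from the 14272 genes in the expression files, and all 7 had a row. The study used these lines as a model of progression from melanocytes to metastatic melanoma and measured their baseline transcriptome by total RNA sequencing. It described the lines by whether they form tumours in mice, whether they look epithelial or mesenchymal, whether they metastasize and their order along progression.

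The melan-a line consists of immortalized, nonmalignant melanocytes syngeneic to C57Bl/6 mice, with epithelial morphology, and it was the only line grown with the phorbol ester PMA, at 200 nM. The 4C line is pre-malignant, non-tumorigenic and mesenchymal-like. The 4C11- line is a melanoma line that is also mesenchymal-like and does not metastasize, whereas the 4C11+ line is a metastatic melanoma line with epithelial morphology. All 3 derived lines came from melan-a cells by repeated cycles of detachment and re-adhesion, with no engineered allele. Each condition is therefore 1 cell line, and the p-values below measure only the spread between replicate libraries of these lines. In every comparison with melan-a, the line and the PMA in its medium cannot be told apart. Of the 11 libraries, 4C, 4C11- and 4C11+ gave 3 each, and melan-a gave replicates 2 and 3, so that n = 2 for that line.

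S100 proteins carry a pair of EF-hand calcium-binding loops, and most work as dimers that change shape when calcium binds and then attach to partner proteins. Inside the cell they act on annexins, cytoskeletal motors and the p53 pathway, and some are secreted and bind cell surface receptors such as RAGE, encoded by Ager. S100B is a standard histological marker of melanocytes and melanoma, and S100A4 and S100A6 are long known from motile, mesenchymal and metastatic cells.

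In the GRCm38 genome, 6 of the 7 genes lie on chromosome 3 and S100b lies alone on chromosome 10. S100a1 (chr3:90511034-90514392, minus strand) and S100a13 (chr3:90514435-90524581, plus strand) point away from each other with 42 bases between their starts. S100a4 (chr3:90603771-90606045) and S100a6 (chr3:90612882-90624181) are neighbours on the plus strand, 6.84 kb apart. S100a11 (chr3:93520488-93526287) and S100a10 (chr3:93555080-93564643) form a second plus-strand pair, 28.8 kb apart and 2.90 Mb from S100a6, and S100b occupies chr10:76253853-76261159 on the plus strand.

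Promoter sequence is shown for S100a6 and S100b, the genes that differed most between the lines, for S100a4, the neighbour of S100a6 with a different pattern, and for the stretch that S100a1 and S100a13 share. The sequences are from the RefSeq table of build GRCm38.p6, which matched 6 of the 7 genes. Each is the plus strand read 5′ to 3′, up to 250 bases before the RefSeq start and ending before the annotated gene, at chr3:90612644-90612881 (S100a6), chr3:90603520-90603769 (S100a4), chr10:76253586-76253835 (S100b) and chr3:90514393-90514434 (the shared stretch). Capitals mark the only match in these windows to any of 8 short motifs.
S100a6: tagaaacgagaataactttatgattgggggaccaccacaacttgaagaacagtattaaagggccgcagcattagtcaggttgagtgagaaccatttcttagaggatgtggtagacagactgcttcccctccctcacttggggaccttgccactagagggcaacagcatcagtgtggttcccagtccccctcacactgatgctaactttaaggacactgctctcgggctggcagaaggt
S100a4: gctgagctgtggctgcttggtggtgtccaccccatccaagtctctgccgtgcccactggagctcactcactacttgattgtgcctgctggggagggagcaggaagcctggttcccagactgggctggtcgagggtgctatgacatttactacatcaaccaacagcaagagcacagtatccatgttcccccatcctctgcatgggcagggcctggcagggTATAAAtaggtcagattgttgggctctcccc
S100b: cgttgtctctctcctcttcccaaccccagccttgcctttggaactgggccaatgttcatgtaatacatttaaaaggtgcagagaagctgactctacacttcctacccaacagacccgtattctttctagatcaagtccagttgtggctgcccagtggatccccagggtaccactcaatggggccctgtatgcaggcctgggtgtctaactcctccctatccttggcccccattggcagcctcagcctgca
S100a1 and S100a13, shared stretch: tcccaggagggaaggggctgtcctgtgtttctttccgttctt

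The motifs, searched on both strands, were the E-boxes CATGTG and CACGTG, the Sox-type letters ACAAAG and ACAATG, the AP-1 letters TGANTCA, the TEAD letters CATTCC, the Sp letters GGGCGG and the TATA box TATAAA. The S100a4 window held TATAAA 31 bases before the start, as 12.4% of 32851 RefSeq promoter windows of this length do on either strand. The S100a6 and S100b windows and the shared stretch held none of the 8. Among the windows not printed, that of S100a11 held CACGTG (found in 6.02% of windows), TGAGTCA at 2 places (6.75% of windows hold TGANTCA) and GGGCGG at 3 (32.7%), with no overlap between matches.

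The values were used as deposited, as log2 CPM after the authors' voom transformation, CPM being counts scaled to the size of the library. They also look quantile normalized, since all libraries share 1 highest value, 13.69, so CPM here is approximate. Low values fall on discrete levels, 1 for each whole read, so that read numbers can be given for weakly expressed genes. Depth estimated from 1 of these levels, read as plain CPM, was 3.50 to 7.42 M reads per library. The values are not exactly plain CPM, because the lowest value was -3.44 in all 4C libraries, whose estimated depths were 5.67 to 7.08 M. The depths are therefore rough. The melan-a libraries correlated with each other at r = 0.907 over all genes, against 0.948 to 0.974 for pairs of 4C libraries, 0.888 to 0.971 for 4C11- pairs and 0.955 to 0.981 for 4C11+ pairs. Of 12 melanocyte markers with a row among 13 listed, 5 were at 3 reads or fewer in every 4C library and 5 in every 4C11- library, and none was so low in all libraries of melan-a or of 4C11+, although Tyr, tyrosinase, was at 3 reads in replicate 2 of melan-a. The summed log2 level of these markers was 10.95 to 13.2 in melan-a, 13.5 to 13.8 in 4C11+, 2.11 to 3.17 in 4C and 2.18 to 3.75 in 4C11-, so that their sum was far lower in both mesenchymal-like lines. The sum hides Pmel, which overlapped between 4C11- (0.60 to 2.54) and melan-a (2.41 to 2.95). In 4C11- against melan-a 11 of the 12 markers passed, all except Pmel. In bulk RNA, fewer cells of a type and less RNA per cell cannot be told apart.

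S100a6 and S100b were expressed in opposite patterns. S100a6 was high in both mesenchymal-like lines and low in both epithelial lines, and S100b was high in both epithelial lines and near absent in both mesenchymal-like lines. S100a4 was high in melan-a, 4C and 4C11- and low in 4C11+ alone. S100a10 varied little around a high level, and S100a1, S100a11 and S100a13 showed few differences that passed the test.

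**Figure D1:**
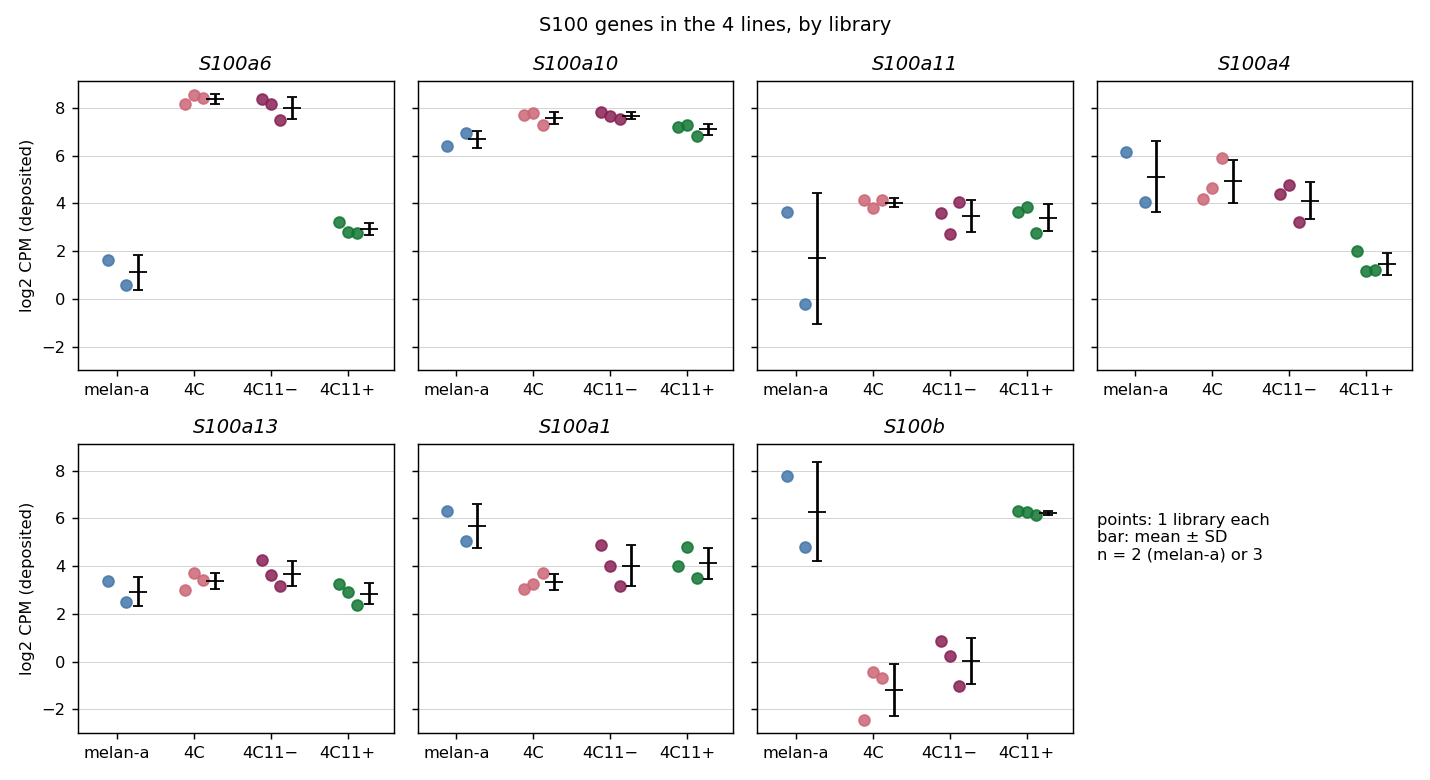
Expression of the 7 S100 genes in each library (points, deposited log2 CPM on the vertical axis), by cell line, with the mean ± SD of the line as a black bar (n = 2 for melan-a, n = 3 for the others). S100a6 lies above 7.4 in all 4C and 4C11- libraries and below 3.3 in all melan-a and 4C11+ libraries, and S100b is arranged the other way round.

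S100a6 encodes calcyclin, which binds annexins, the ubiquitin ligase adaptor encoded by Cacybp and tropomyosin. In log2 CPM it was at 8.15, 8.55 and 8.43 in 4C and at 8.39, 8.16 and 7.48 in 4C11-. It was at 1.63 and 0.60 in melan-a, where the libraries held 12 and 8 reads of it, and at 3.23, 2.81 and 2.78 in 4C11+, with 28 to 39 reads. The 6 mesenchymal-like libraries all lay far above the 5 epithelial ones, and all 4C11+ libraries lay above both melan-a libraries.

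The mean of the 2 mesenchymal-like lines exceeded that of the 2 epithelial lines by 6.17 in log2 units (SE 0.24, 95% CI 5.64 to 6.70, adjusted p = 9.3e-09 in limma), or 71.9-fold. S100a6 passed the test in 5 of the 6 comparisons between pairs of lines, all except 4C11- against 4C, where the difference was -0.37 (95% CI -1.07 to 0.34, adjusted p = 0.68 in limma). The level in 4C was 154-fold that in melan-a (log2 difference 7.27, SE 0.36, adjusted p = 2.2e-07 in limma). From 4C11- to 4C11+ it fell by 5.07 (SE 0.32, adjusted p = 5.1e-07 in limma), a 33.6-fold decrease.

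S100a6 was also 3.55-fold higher in 4C11+ than in melan-a (log2 difference 1.83, SE 0.36, adjusted p = 0.0062 in limma), although with these 2 lines fitted alone the adjusted p was 0.064. The gap between the mesenchymal-like and the epithelial line was 7.27 in the non-tumorigenic pair and 5.07 in the tumorigenic pair, and these gaps differed by -2.20 (SE 0.48, adjusted p = 0.016 in limma). Of the 7 genes, 1 passed this test of the difference, S100a6, against 9.83% of all genes.

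S100b encodes a protein abundant in melanocytes, Schwann cells and astrocytes, which binds p53 and, outside the cell, the RAGE receptor. In log2 CPM it was at 7.77 and 4.81 in melan-a and at 6.30, 6.28 and 6.14 in 4C11+. It was at -2.44, -0.42 and -0.70 in 4C, which correspond to 1, 6 and 4 reads, and at 0.85, 0.24 and -1.01 in 4C11-, with 9, 9 and 5 reads. The 3 libraries of 4C11+ lay close together, with an SD of 0.091, and fell between the melan-a libraries, which were 2.96 log2 units apart. No mesenchymal-like library came within 3 log2 units of any epithelial one.

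The mesenchymal-like lines lay below the epithelial lines by a mean of 6.84 (log2 difference -6.84, SE 0.57, 95% CI -8.09 to -5.59, adjusted p = 2.9e-06 in limma), or 115-fold. S100b passed in 4 of the 6 pairs of lines. It was 178-fold lower in 4C than in melan-a (log2 difference -7.47, SE 0.85, adjusted p = 8.3e-05 in limma) and 74.1-fold higher in 4C11+ than in 4C11- (log2 difference 6.21, SE 0.76, adjusted p = 9.0e-05 in limma). With so few reads in 4C and 4C11- the folds depend on how low values are handled, and with 1 CPM added before the logarithm the same differences were -5.74 and 5.19. They also depend on single libraries: the difference between 4C and melan-a was -6.00 without replicate 2 of melan-a, -8.95 without its replicate 3 and -6.85 without replicate 1 of 4C, and the difference between the 2 morphologies was -6.10 and -7.58 without the first and the second of these.

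The pairs of lines that share a morphology did not differ in S100b beyond the replicate spread. Between 4C11+ and melan-a the difference was -0.05 (95% CI -1.91 to 1.81, adjusted p = 0.97 in limma), so that it was poorly bounded, and without replicate 2 of melan-a it was 1.43. Between 4C11- and 4C it was 1.21 (95% CI -0.45 to 2.88, adjusted p = 0.55 in limma).

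Markers of several cell types also differed in the contrast of morphology. The 12 melanocyte markers were all lower in the mesenchymal-like lines, with a median log2 difference of -8.21. Mbp, a myelin gene listed as a Schwann marker, was lower as well, with means of 6.66 log2 CPM in 4C and 5.90 in 4C11- against 8.53 in melan-a and 8.63 in 4C11+. All 9 fibroblast and mesenchymal markers with a row among 11 listed passed, 7 higher, such as Col1a1 with means of 10.9 in 4C and 10.6 in 4C11- against 1.42 in melan-a and 1.76 in 4C11+, and 2 lower, Vim and Cdh2 (median 4.05). Their summed log2 level, to which Vim contributed most in the epithelial lines, was 11.8 to 12.1 in the mesenchymal-like libraries and 11.1 to 12.6 in the epithelial ones. The endothelial marker Cdh5, with a row as 1 of 4 listed, was higher by 6.46, although its 4C libraries ranged from -0.70 to 4.01. Krt10 was higher as 1 of 2 keratinocyte markers with a row among 7, while neither of 2 haematopoietic markers with a row among 6 passed. Krt10 and Fn1, the latter among the 7 higher mesenchymal markers, had their highest means in melan-a, 1.26 and 9.89. Their means were 0.24 and 9.23 in 4C, 0.60 and 9.41 in 4C11- and -2.49 and 6.19 in 4C11+. For these 2 genes the contrast is therefore a mean over 2 unlike pairs of lines. The part of these markers in the S100a6 and S100b results was not tested.

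S100a4 encodes metastasin, which binds non-muscle myosin heavy chain IIA (Myh9). In log2 CPM it was at 6.17 and 4.07 in melan-a, at 4.21, 4.65 and 5.91 in 4C and at 4.38, 4.76 and 3.23 in 4C11-. In 4C11+ it was at 2.00, 1.18 and 1.20, from 8 to 15 reads per library. All 4C11+ libraries were lower than every library of the other lines, and the libraries of those 3 lines overlapped.

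S100a4 was 6.33-fold lower in 4C11+ than in 4C11- (log2 difference -2.66, SE 0.61, adjusted p = 0.0063 in limma), 11-fold lower than in 4C (-3.46, SE 0.61, adjusted p = 0.0012) and 12.6-fold lower than in melan-a (-3.66, SE 0.68, adjusted p = 0.0044). Without replicate 2 of melan-a the last difference was -2.61 and its adjusted p in limma was 0.052, and without replicate 3 it was -4.71. The other 3 pairs of lines had differences of -0.20 to -0.996 that did not pass. The mean of the mesenchymal-like lines was 1.23 above that of the epithelial lines (95% CI 0.23 to 2.23, adjusted p = 0.063 in limma), a contrast that passed at 1.41 and 1.45 when replicate 1 of 4C or replicate 3 of 4C11- was left out. It was 1.76 without replicate 2 of melan-a, which leaves 1 library of that line. The gene Gm42674, which has no row, lies over S100a4 on the same strand and covers 302 of its 584 exonic bases (51.7%), and how reads shared by both were counted is not given in the sources used here, so its counts are uncertain.

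S100a10 and S100a11 are both partners of annexins. The S100a10 protein, p11, forms a tetramer with annexin A2 that promotes plasminogen activation at the cell surface, and it differs from the rest of the family in having lost calcium binding. In log2 CPM S100a10 was at 6.42 and 6.95 in melan-a, at 7.70, 7.77 and 7.27 in 4C, at 7.84, 7.68 and 7.52 in 4C11- and at 7.19, 7.29 and 6.84 in 4C11+. The spread over all 11 libraries was 1.42 log2 units, the narrowest of the 7 genes, and the melan-a libraries were below every 4C and 4C11- library.

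S100a10 was 1.86-fold higher in 4C than in melan-a (log2 difference 0.90, SE 0.25, adjusted p = 0.033 in limma) and 2.00-fold higher in 4C11- than in melan-a (0.997, SE 0.25, adjusted p = 0.021). Both calls were fragile, with adjusted p values of 0.10 and 0.12 in limma when only the lines compared were fitted and 0.21 and 0.15 without replicate 2 of melan-a. The first was at 0.066 without a mean-variance trend and the second at 0.13 with array weights. The first call was also lost without replicate 1 or 2 of 4C, replicate 2 of 4C11- or replicate 1 of 4C11+ (adjusted p 0.056 to 0.12 in limma), and the second without replicate 2 of 4C11- (0.065). The mean of the mesenchymal-like lines was 0.74 above that of the epithelial lines (SE 0.17, adjusted p = 0.0063 in limma), and this difference passed under every alternative tried (0.61 to 0.87), although the replicate 3 library of 4C, at 7.27, was below replicate 2 of 4C11+, at 7.29.

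S100a11, a partner of annexin A1, was set apart by its melan-a libraries. In log2 CPM they were at 3.65 and -0.24, or 43 and 4 reads, while it was at 4.15, 3.82 and 4.13 in 4C, at 3.60, 2.73 and 4.08 in 4C11- and at 3.63, 3.84 and 2.75 in 4C11+. The gap of 3.89 between the melan-a libraries was exceeded by 1.47% of all genes. No pair of lines passed for S100a11, and the largest difference was 2.32 between 4C and melan-a (95% CI 0.43 to 4.22, adjusted p = 0.098 in limma). These differences turned on the melan-a libraries. Without replicate 2 of melan-a, which leaves 1 library of that line, the difference between 4C and melan-a was 4.27. In that fit the difference between mesenchymal-like and epithelial lines was 2.17 instead of 1.20, and 4C11- and 4C11+ exceeded melan-a by 3.71 and 3.64. Without replicate 3 of melan-a the difference between 4C and melan-a was 0.38.

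S100a1, best known from heart and skeletal muscle where it acts on calcium handling, and S100a13, which takes part in the release of FGF1 from cells, share the 42-base stretch shown above. S100a1 was at 6.32 and 5.04 log2 CPM in melan-a, at 3.06, 3.23 and 3.73 in 4C, at 4.88, 4.01 and 3.16 in 4C11- and at 4.02, 4.81 and 3.52 in 4C11+. Both melan-a libraries lay above all others, and the 3 derived lines overlapped. S100a13 was at 3.37 and 2.49 in melan-a, at 3.02, 3.70 and 3.42 in 4C, at 4.25, 3.62 and 3.18 in 4C11- and at 3.23, 2.91 and 2.37 in 4C11+, with overlap between all neighbouring lines.

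S100a1 was 5.06-fold lower in 4C than in melan-a (log2 difference -2.34, SE 0.55, adjusted p = 0.014 in limma), but without replicate 2 of melan-a the difference was -1.70 and its adjusted p in limma was 0.13, and without replicate 3 it was -2.98. In 4C11- and 4C11+ it was 1.66 and 1.56 below melan-a, with adjusted p values of 0.072 and 0.079 in limma. These 2 differences passed without replicate 1 of 4C11- (adjusted p = 0.022 and 0.043 in limma). They were -2.31 and -2.21 without replicate 3 of melan-a, which leaves 1 library of that line. The difference of -1.22 between mesenchymal-like and epithelial lines passed (SE 0.37, adjusted p = 0.028 in limma) but was lost when any of 7 libraries was left out, replicate 2 of melan-a, replicates 1 and 2 of 4C, replicates 2 and 3 of 4C11- and replicates 1 and 2 of 4C11+ (adjusted p 0.052 to 0.12), and the 2 sides overlapped. S100a13 passed in no pair of lines, and its differences ranged from -0.85 to 0.75. Over the 11 libraries S100a1 and S100a13 had a Pearson r of 0.083, which is given as a description.

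Set out by the transitions of the model, all calls were in the first and the last, and whether those 2 differ from the middle one was not tested. From melan-a to 4C, S100a6 and S100a10 rose and S100a1 and S100b fell, 4 of 7 genes against 15.2% of all genes tested. From 4C to 4C11- none of the 7 passed in limma, at an adjusted p under 0.05 or at an unadjusted p under 0.05. Over all genes, 1.67% passed at the adjusted threshold and 1926 of 14272 at the unadjusted one. From 4C11- to 4C11+, S100b rose and S100a4 and S100a6 fell, 3 of 7 against 31.1%. The median difference of the 7 genes was 0.44 in the first transition, 0.10 in the second and -0.58 in the third, beside medians over all genes of -0.06, 0.01 and 0.12.

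Between the ends of the series, 4C11+ against melan-a, S100a4 fell and S100a6 rose, 2 of 7 against 15.9% of all genes. In 4C11- against melan-a, S100a6 and S100a10 rose and S100b fell, 3 of 7 against 13.6%. In 4C11+ against 4C, S100a4 and S100a6 fell and S100b rose, 3 of 7 against 31.7%. These comparisons share libraries with each other and are not independent. In the contrast of morphology, the mesenchymal-like against the epithelial lines, 4 of 7 genes passed against 29.7% of all genes, and 2 of 7, S100a6 and S100b, had no overlap between the libraries of the 2 sides, against 13.9%.

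**Figure D2:**
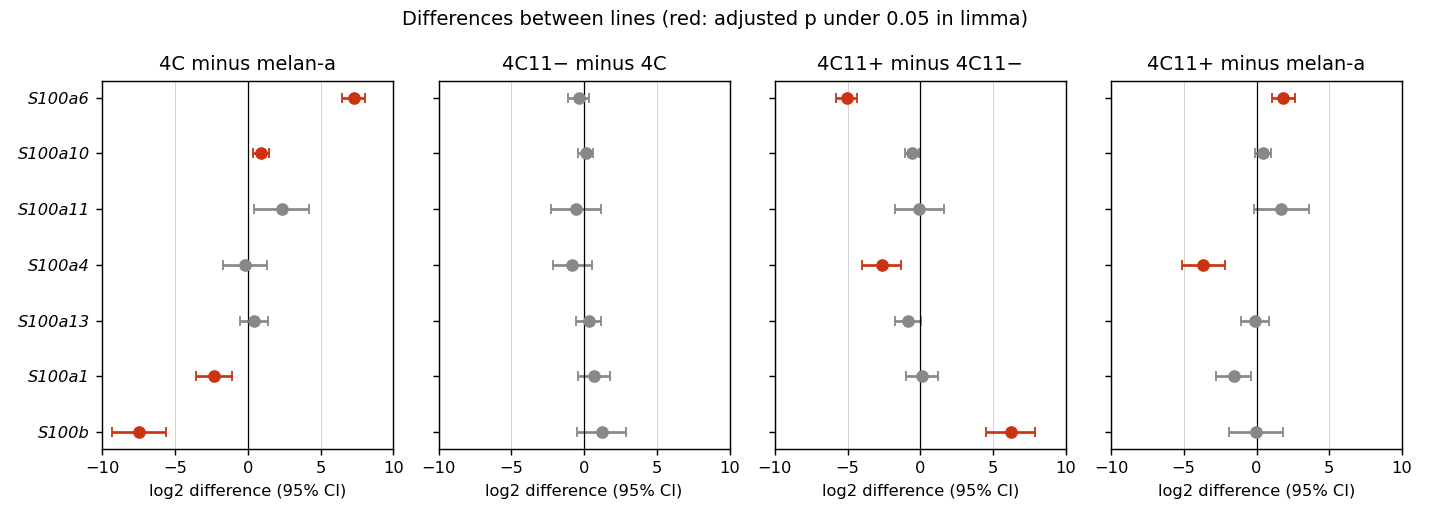
Differences in log2 CPM between pairs of lines for the 7 S100 genes (points, with 95% confidence intervals from limma), in red where the adjusted p was under 0.05. S100a6 and S100b are far from 0 in opposite directions in 4C minus melan-a and again, with signs exchanged, in 4C11+ minus 4C11-, and every interval in 4C11- minus 4C includes 0.

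Because a longer transcript collects more reads, levels were compared between genes as CPM per kilobase of transcript, using 1 annotated transcript per gene. Summed over the 7 genes, this level was 873 ± 78.4 (SD, n = 3) in 4C and 773 ± 170 (n = 3) in 4C11-, and 435 ± 201 (n = 2) in melan-a and 329 ± 56.4 (n = 3) in 4C11+. By library, the lowest sum of a mesenchymal-like line was 591 and the highest of an epithelial line 577, so the sums did not overlap but came close.

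The make-up of this sum changed more than its size. S100a6 made up 52.3% ± 2.6 of it in 4C and 46.5% ± 4.5 in 4C11-, but 0.719% ± 0.017 in melan-a and 3.26% ± 0.60 in 4C11+ (SD over the libraries of each line). S100b made up 15.9% ± 13.4 in melan-a and 15.7% ± 1.9 in 4C11+, and 0.0387% and 0.0958% in 4C and 4C11-. S100a10 was the largest share in 4C11+, 61.6% ± 1.1, and took 32.6% ± 6.6 in 4C and 39.6% ± 5.1 in 4C11-. In melan-a its share was 21.7% in replicate 2, below S100b at 25.4% and S100a4 at 25.0%, and 61.5% in replicate 3.

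**Figure D3:**
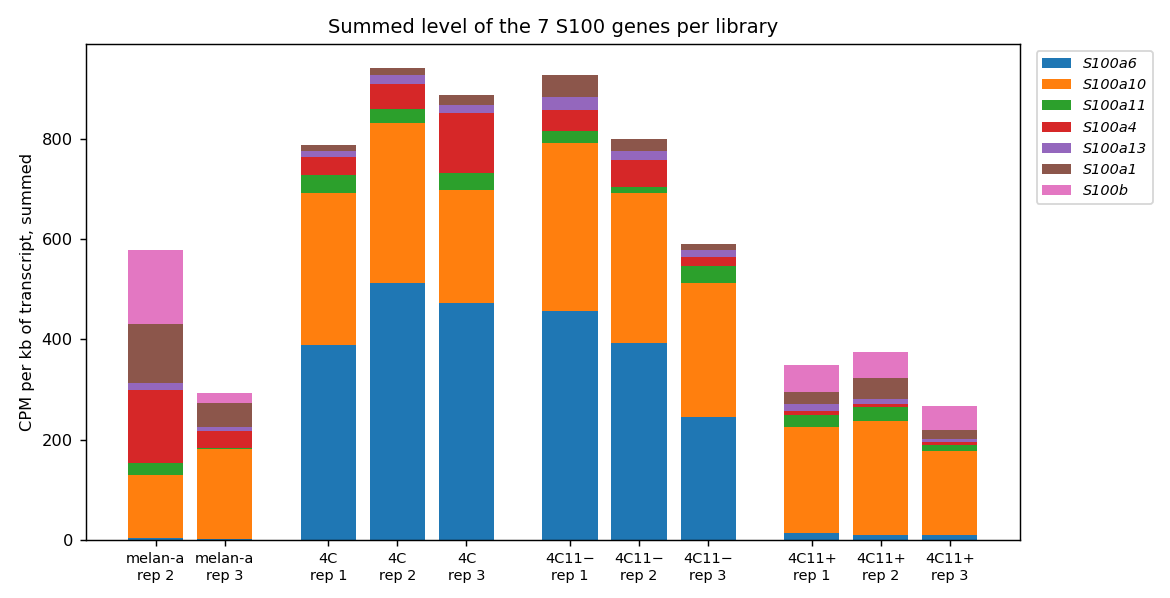
Summed level of the 7 S100 genes in each library in CPM per kilobase of transcript (bars, starting at 0), with each gene as a coloured segment. The S100a6 segment is the largest in every 4C library and in 4C11- replicates 1 and 2, S100a10 is the largest in all 4C11+ libraries and in 4C11- replicate 3, and S100b is visible only in melan-a and 4C11+.

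Neighbouring S100 genes did not all share 1 pattern. S100a6, at a mean of 8.83 log2 CPM per kilobase in 4C, and S100a4, at 5.93, lie 6.84 kb apart, and between 4C and melan-a their differences in log2 CPM were 7.27 and -0.20. Both were lower in 4C11+ than in 4C11-, by 5.07 and 2.66. S100a11 and S100a10 differed from each other in level, at 5.00 and 8.13 log2 CPM per kilobase in 4C. Their differences between 4C11+ and 4C11- were -0.07 and -0.58, neither of which passed. Between 4C and melan-a both were positive, 2.32 and 0.90, and only that of S100a10 passed. A different pattern is thus not shown for this pair.

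Outside the named genes, the other S100-type genes listed were mostly without a row, with 3 of 19 present, S100a3, S100a16 and S100pbp, which encodes an S100P-binding protein. S100a16, between S100a13 and S100a4 on chromosome 3, was at 3.09, 3.38 and 3.13 log2 CPM in 4C11+, above every other library, although replicate 1 of 4C11- was at 2.60 beside -0.70 and 0.22. It was higher in 4C11+ than in 4C11- by 2.49 (adjusted p = 0.020 in limma), than in 4C by 3.75 (0.0019) and than in melan-a by 4.27 (0.0044). S100a3 had 0 reads in all 4C11+ libraries and in replicate 3 of melan-a, 8 in replicate 2 of melan-a, 6 to 7 in 4C11- and 7 to 16 in 4C. It passed in 4C11+ against 4C (-3.29, adjusted p = 0.0092 in limma) and in the contrast of morphology (1.92, adjusted p = 0.033). S100pbp passed in no pair of lines.

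**Figure D4:**
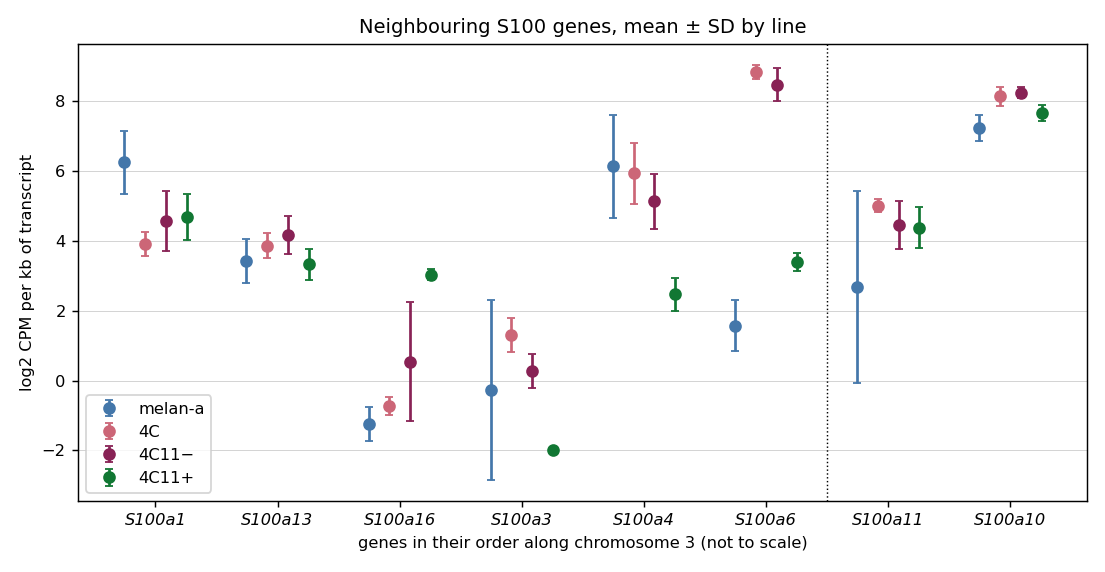
Mean ± SD by line of the S100 genes on chromosome 3 in log2 CPM per kilobase of transcript, in their order along the chromosome (not to scale), with the dotted line dividing the 2 groups of genes. S100a6 separates the 4C and 4C11- means, above 8, from melan-a and 4C11+, below 4, whereas S100a16 has its highest mean in 4C11+ and S100a4 its lowest mean there.

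The partners, targets and receptors of S100 proteins were read from a list of 48 genes, of which 36 had a row. Between mesenchymal-like and epithelial lines, 9 of the 36 were higher and 5 lower, 14 in all, against 29.7% of all genes, and their median difference was 0.14 beside -0.09 over all genes. From melan-a to 4C, 3 rose and 4 fell, 7 of 36 against 15.2% of all genes. From 4C to 4C11- none passed in limma, against 1.67%. At an unadjusted p under 0.05 there were 6 of 36, beside 1926 of all 14272 genes. From 4C11- to 4C11+, 5 rose and 10 fell, 15 of 36 against 31.1%. In 4C11- against melan-a, 2 were higher and 5 lower, 7 of 36 against 13.6%. In 4C11+, 3 were higher and 9 lower than in melan-a, 12 of 36 against 15.9%, and 3 higher and 9 lower than in 4C, 12 of 36 against 31.7%.

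Annexin A2 (Anxa2), the membrane-binding partner of S100a10, was at 8.76 and 7.91 log2 CPM in melan-a, at 9.59, 9.68 and 9.18 in 4C, at 9.35, 8.96 and 8.95 in 4C11- and at 8.84, 8.59 and 8.30 in 4C11+. All mesenchymal-like libraries lay above all epithelial ones. The difference was 0.83 (SE 0.19, adjusted p = 0.0065 in limma), next to 0.74 for S100a10. From melan-a to 4C Anxa2 rose by 1.15 (adjusted p = 0.018 in limma). Plaur, the urokinase receptor of the same plasminogen system, rose by 3.45 from melan-a to 4C (adjusted p = 8.0e-05 in limma) and was higher in 4C11+ than in melan-a by 2.19 (adjusted p = 0.0035). Plat, a plasminogen activator on the same list, went the other way in 4C11+ against melan-a, where it passed as lower (means 2.03 and 6.56). Its difference between 4C11+ and 4C11- was -4.43 (adjusted p = 2.9e-04 in limma), and that between 4C and melan-a, -0.83, did not pass. Ahnak, a giant scaffold protein bound by the annexin A2 and S100A10 complex, was at 7.99, 7.41 and 7.87 in 4C11+ and between 9.71 and 12.2 in all other libraries, a decrease of 3.36 from 4C11- (adjusted p = 2.2e-04 in limma).

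Among the targets of S100a4 and S100a6, Myh9 and Tpm1 were both lower in 4C11+ than in 4C11-, by 1.58 and 0.59 (adjusted p = 6.9e-04 for Myh9 in limma). Cacybp, the calcyclin-binding protein, passed in no pair of lines, its means being 7.37 ± 0.12 log2 CPM in 4C, 7.12 ± 0.46 in 4C11+, 6.93 ± 0.92 in 4C11- and 6.51 ± 1.02 in melan-a (SD). Lgals3, galectin-3, was at 8.85 and 8.71 in melan-a, between 4.80 and 7.73 in 4C and 4C11- and between -2.44 and -0.70 in 4C11+. Its positive difference between mesenchymal-like and epithelial lines (3.14, adjusted p = 2.6e-04 in limma) is therefore a mean over 2 unlike pairs, with -1.37 from melan-a to 4C (adjusted p = 0.22) and -7.65 from 4C11- to 4C11+ (adjusted p = 2.9e-06).

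For S100b and S100a13 the listed partners moved in other ways. Trp53, whose protein is bound by several S100 dimers, fell by 1.60 from 4C11- to 4C11+ (adjusted p = 0.0057 in limma). Its 4C11+ libraries were spread, at 4.65, 4.75 and 6.26 log2 CPM, and replicate 3 lay above the melan-a libraries, at 5.85 and 5.79. Mdm2, the ligase that restrains p53, rose by 2.50 from 4C11- to 4C11+ (adjusted p = 7.0e-06 in limma), with 8.06, 8.14 and 7.87 log2 CPM in 4C11+ and 5.25 to 5.91 elsewhere. Ager had means between 1.71 and 2.29 in the 4 lines, and its difference between mesenchymal-like and epithelial lines was 0.11 (95% CI -0.57 to 0.80). Fgf1, the growth factor exported with S100a13, fell by 2.64 from melan-a to 4C (adjusted p = 0.012 in limma) and was lower in the mesenchymal-like lines by 1.83 (adjusted p = 0.0052), while S100a13 itself passed in neither.

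**Figure D5:**
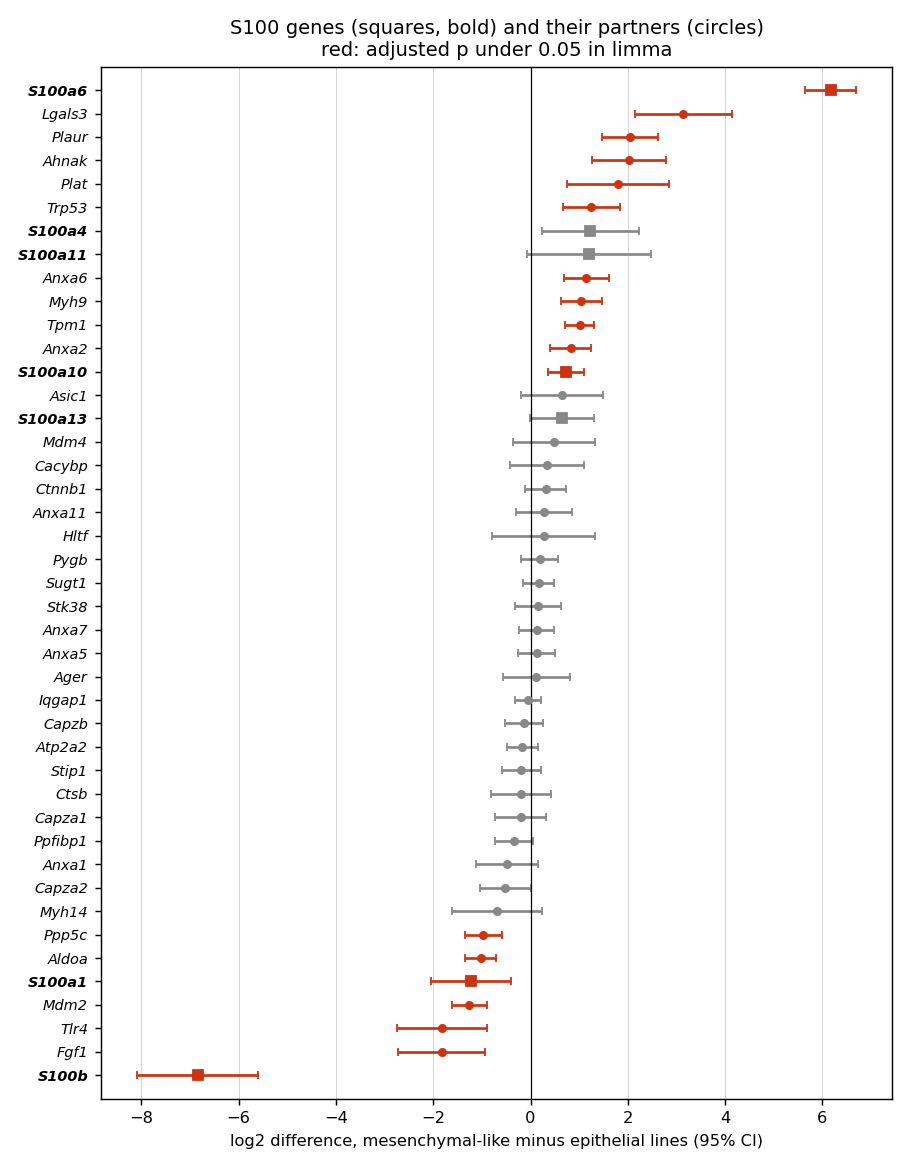
Log2 differences between the mean of the mesenchymal-like lines and the mean of the epithelial lines for the 7 S100 genes (squares, bold names) and 36 partners, targets and receptors (circles), with 95% confidence intervals from limma and red for an adjusted p under 0.05. S100a6 at 6.17 and S100b at -6.84 lie outside the range of the partners, which runs from -1.83 to 3.14.

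Ubiquitous EF-hand proteins served as a comparison within the wider calcium-binding superfamily. All 10 such genes listed had a row, and Cetn2, which encodes a centrin, was higher in the mesenchymal-like than in the epithelial lines by 0.61 (SE 0.19, adjusted p = 0.031 in limma). The median size of the difference, without its sign, was 0.31 in these 10 genes, 1.22 in the 7 S100 genes and 0.50 over all genes. Ranked by size among the 14272 genes, S100b was in place 160 and S100a6 in place 241.

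The genes closest to each S100 gene over the 11 libraries were sought among 11431 genes with a mean log2 CPM of at least 1, by Pearson r, as a description. For S100a6 they were Dnm1 (r = 0.993), Hoxb13 (0.991) and Tmem119 (0.990), and for S100b they were Sox10 (0.981), BX649560.1 (0.973) and Telo2 (0.973). For S100a4 the 3 nearest were Dop1b, Thbs1 and Pnpla7 (0.968 to 0.971), for S100a10 Tsr2, Cstf1 and Fam83d (0.955 to 0.971), for S100a1 Ndufa2, Idh3b and Cyth1 (0.933 to 0.955), for S100a11 Zfp142, Gstk1 and 2310030G06Rik (0.939 to 0.944), and for S100a13 Kansl3, Sdc4 and Prkd2 (0.938 to 0.947). Sox10, which encodes a neural crest transcription factor, was at 9.05 and 7.88 log2 CPM in melan-a, at 8.02, 7.68 and 8.34 in 4C11+ and between -3.44 and 0.48 in the mesenchymal-like libraries. Between members, r was -0.917 for S100a6 and S100b and 0.847 for S100a6 and S100a10. These coefficients rest on 4 lines with 2 or 3 libraries each, so a difference between lines sets most of their size.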

How the data were processed

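Total RNA of triplicate cultures was depleted of ribosomal RNA and sequenced with a strand-specific kit, and melan-a replicate 1 was not analysed here. The authors trimmed the reads (Trimmomatic, in the submitters' processing notes), aligned them with STAR to the Ensembl mouse genome, assigned them to genes with Rsubread, discarded genes that did not reach 1 CPM in 4 libraries and then ran voom in limma. The deposited values are log2 CPM. All libraries share 1 highest value, 13.69, a pattern that quantile normalization leaves, a step the methods do not name. On such a scale a change in total RNA per cell cannot be seen.

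The deposited values were fitted with limma 3.58.1 in R 4.3.3, as 4 line means over 11 libraries with a mean-variance trend, and p-values were adjusted over 14272 genes by Benjamini-Hochberg (threshold 0.05). Every library had equal weight whatever its depth. Read numbers were taken from the rank of the discrete low values and cover counting error only. Levels between genes were divided by the length of 1 GENCODE transcript. The 7 genes and all lists were chosen with earlier results of these data known. All 7 genes were named in every comparison, with partners that passed or bind a named gene, and for each gene the 3 most correlated genes. On simulated data for 4C against melan-a (14272 genes, 200 changed), the test recovered 0% of genes changed by 1 log2 unit, 53.5% of those changed by 2 and 95.5% of those changed by 4. Apart from the genes changed in 4C, the simulated lines had equal means. In the real comparison 15.2% of genes passed, so the adjusted threshold was less strict there. These rates therefore do not carry over to the real comparison, in which S100a10 passed at 0.90. Alternatives were no trend, robust variance, array weights, quantile normalization, median centring, 1 CPM added, a mean log2 of at least 1, a replicate block, only the lines compared and each library left out. Because the deposited values already look quantile normalized, the quantile and median alternatives could change little. They called 2156 and 2170 genes in 4C against melan-a, beside 2167 in the main fit. Leaving out a melan-a library leaves n = 1 for that line, so those fits hold no spread within melan-a. Results of some listed genes are not reported here.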

Additional observations from a re-analysis of the deposited data

Results flagged for a closer look

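In groups of 5 or 6 libraries of the same morphology, a library far from the rest was looked for in 14 groups. Chance alone flags about 1 in 20 where all libraries share 1 mean. Each group pools 2 lines whose means can differ, so that rate need not hold here. For S100a6 in the mesenchymal-like libraries, replicate 3 of 4C11-, at 7.48, was the lowest, and its gap to the next library took 0.629 of the whole range. For S100a11 in the epithelial libraries, replicate 3 of melan-a, at -0.24, was the lowest, and its gap took 0.731 of the range. The S100a6 gap between mesenchymal-like and epithelial lines differed between the tumorigenic and the non-tumorigenic pair by -2.20 in the interaction test (adjusted p = 0.016 in limma), being 5.07 in the former and 7.27 in the latter.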

How the results depend on the processing

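Over 20 alternatives (19 for the contrast of morphology and the difference between the gaps, for which all 4 lines are needed), S100a6, S100b and S100a4 stayed called in 4C11+ against 4C11- and against 4C, S100a6 and S100b in both comparisons of a mesenchymal-like line with melan-a and in the contrast of morphology, and S100a6 in the difference between the gaps. The counts of called genes that moved by over 1.5 times were 4C11+ against melan-a (1 with only those lines fitted), 4C11+ against 4C (6 with array weights, whose estimate stopped short of convergence) and the difference between the gaps (1 to 3 over the left-out libraries: 2 without melan-a replicate 2, 3 without melan-a replicate 3 and 3 without 4C11- replicate 3). Among the alternatives, quantile normalization and median centring could change little on this scale. Signs that changed belonged to differences that had not passed. With array weights these were, for 4C11- against 4C, S100a10 -0.12, S100a11 0.10, S100a13 -0.21 and S100b -0.020, for 4C11+ against melan-a, S100a13 0.21 and S100b 0.0031, and for the difference between the gaps, S100a13 -0.42 and S100b -0.023. With 1 library left out in turn the ranges that crossed 0 were, for 4C against melan-a, S100a4 -1.25 to 0.85, for 4C11- against 4C, S100a10 -0.056 to 0.19, for 4C11+ against 4C11-, S100a1 -0.33 to 0.53 and S100a11 -0.44 to 0.26, for 4C11- against melan-a, S100a4 -2.04 to 0.051 and S100a11 -0.18 to 3.71, for 4C11+ against melan-a, S100a11 -0.25 to 3.64, S100a13 -0.54 to 0.34 and S100b -1.53 to 1.43, and for the difference between the gaps, S100a13 -0.038 to 0.84 and S100b -0.22 to 2.74. The cause of these changes was not tested beyond the smaller number of libraries. Same-numbered libraries of different lines had deviations that correlated at -0.23 to 0.39, with a median of 0.15 and 8 of 15 pairs over 0.1. For libraries with other numbers the range was -0.42 to 0.34, with a median of -0.095 and 11 of 30 pairs over 0.1. The main fit did not take the numbers as pairs, and whether they mark pairs was not tested. With a replicate block, the S100a10 call in 4C against melan-a was lost (0.84, adjusted p = 0.055 in limma), S100b in 4C11+ against melan-a was 0.011, and no other call changed. Depth limits S100b in 4C and 4C11-, S100a6 in melan-a and S100a4 in 4C11+, each at 15 reads or fewer per library.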
